A study of Mus musculus with 8 samples.

Results

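Protocadherins are the largest group of the cadherin superfamily of cell adhesion proteins, and 71 of the 20258 gene symbols measured in mouse hippocampus carried a symbol that starts with Pcdh. The members were taken by that symbol alone and stood on 103 of 29112 rows, of which the first per symbol was used. They comprised 15 genes of the alpha cluster, 22 of the beta cluster, 22 of the gamma cluster and 12 non-clustered genes. The symbol Pcdha4-g, whose transcript begins in the alpha and ends in the gamma cluster, was counted with alpha by its letters.

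Polyadenylated RNA came from hippocampi of C57BL/6 mice in 4 groups of 2 libraries. The groups were control animals and animals killed 12 h, 10 d or 6 wk after a prolonged seizure state, status epilepticus (SE). Each library pooled cDNA of 2 animals. The sources used here do not name the agent that induced SE, what the controls received, or the animals' age and sex. For each time the authors deposited 2 values per transcript relative to control, a signed fold averaged over pairs of libraries, negative for a fall, and an averaged q-value, written q from here on. How q was computed is not stated, so what spread it measures is not known. All folds, when multiplied by 4, were whole millionths within 0.02, as means of 4 pairs of libraries would be. The 3 comparisons share the control libraries, and no values per library, depth or error stand behind a fold here. A gene was called higher or lower where q was under 0.05 and the averaged fold reached 1 in either direction. On this scale 1 and -1 both stand for no change in level, so a called value just past 1 in size is a small change. Where q passed but the fold stayed under 1 in size, the gene was called mixed, since its pairs must then disagree in direction or lack a fold. Pairs of a gene called higher or lower may also disagree in direction, since only their mean was at hand. In bulk tissue, fewer cells of a type and less RNA per cell cannot be told apart.

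In the clusters, each alpha or gamma gene joins its own large first exon, which encodes the cadherin repeats, to constant exons that are shared by the whole cluster, whereas a beta gene is a single exon. Neurons choose among the promoters of these variable exons, a choice that involves CTCF, cohesin and DNA methylation, and the resulting sets of isoforms bind only matching sets on other membranes, which serves self-recognition of neurites. Non-clustered members, of which the delta-1 group (Pcdh1, Pcdh7, Pcdh9, Pcdh11x) and the delta-2 group (Pcdh8, Pcdh10, Pcdh17, Pcdh18, Pcdh19) are best known, have their own promoters and act in axon growth, synapse formation and cell sorting.

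Calls fell mainly on the non-clustered genes. At 12 h 3 of the 12 non-clustered genes rose and 6 fell, a share of 75% called, beside 17.6% of all genes with a fold at that time (10.2% higher and 7.48% lower). Over the 59 clustered genes 1 rose and 0 fell at 12 h, and 0 of all 71 members were mixed, beside 4.28% of all genes. At 10 d 2 non-clustered genes rose and 1 fell, or 25%, beside 19.1% of all genes (7.85% higher and 11.3% lower), while 0 clustered genes rose and 2 fell. At 6 wk 4 non-clustered genes rose and 2 fell, or 50%, beside 21.6% of all genes (9.63% higher and 12% lower), while 3 clustered genes rose and 0 fell. Over the 3 times 10 of 12 non-clustered genes were called at least once (83.3%), against 2 of 15 alpha, 3 of 22 beta and 0 of 22 gamma genes, and against 42.6% of the 15449 genes with a fold at each time. All 71 members had a fold at every time. Alpha rows share constant exons with each other, as do gamma rows, so their counts are not counts of separate measurements. Read depth, on which a q-value depends, was not at hand for any class. Some beta genes had the rounded fold and q of an unrelated gene, as Pcdhb6 and F5 did at 12 h in the authors' deposited table (both 2.64, q 0.817). Rows with only a few reads can coincide in this way. Whether low depth bears on the few beta calls was not tested.

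**Figure D1:**
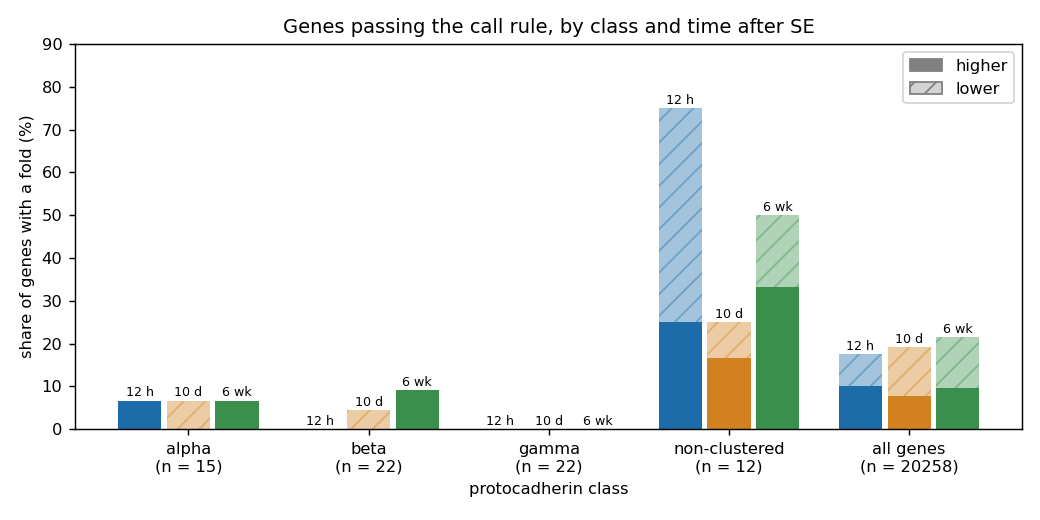
Share of genes with a fold that passed the call rule as higher (solid) or lower (hatched), in percent, for each protocadherin class and for all genes at 12 h, 10 d and 6 wk after SE. Non-clustered genes reached 75% at 12 h, and gamma genes, whose rows share constant exons, stood at 0 at each time.

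Pcdh8, also known as arcadlin, is a delta-2 member that neuronal activity induces in hippocampal neurons and that draws N-cadherin into the cell through the kinase TAOK2. Its mean fold in the authors' deposited table was 2.58 at 12 h (q 0.00249), 2.16 at 10 d (q 1.35e-07) and 5.72 at 6 wk (q 9.82e-16), so that Pcdh8 rose at every time. The gene (NM_001042726) lies on the minus strand of chromosome 14 at 80166584 to 80171119 on mm9. Its second transcript, NM_021543, had closely similar folds of 2.59, 2.75 and 5.97 in the authors' deposited table.

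Pcdh7, a delta-1 member also called BH-protocadherin, was the other member called higher at all 3 times, as were 0.913% of the 15449 genes with a fold at each time. For the transcript NM_018764 the authors' deposited table gives 5.88 at 12 h (q 0.00144), 15.6 at 10 d (q 3.1e-14) and 18.7 at 6 wk (q 0.000637). Taken by the first row per symbol, the values at 10 d and 6 wk were the highest of the non-clustered class. This holds for the shorter transcript alone, as the comparison of transcripts shows.

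Most falls at 12 h were small in size and came from brain-expressed delta members. Pcdh9, a delta-1 member, stood at -2.09 (q 0.000508), and Pcdh10, a delta-2 member that recruits the WAVE actin regulators through NCKAP1, at -2.01 (q 0.00936) in the authors' deposited table. Pcdh17, a delta-2 member found at synapses of corticobasal circuits, stood at -2.00 (q 2.96e-05) and Pcdh19, whose human counterpart is mutated in an X-linked epilepsy, at -1.74 (q 3.58e-05) in the same authors' deposited table. Pcdh20 stood at -2.62 (q 2.48e-07) in the authors' deposited table. Thus 5 of the 6 falls lay between -1.74 and -2.62. The exception was the delta-1 member Pcdh11x on chromosome X, at -73.0 (q 1.32e-06) in the authors' deposited table.

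At later times these genes parted. Pcdh17 fell again at 10 d (-2.07, q 6.97e-06) and rose at 6 wk (1.52, q 0.0371) in the authors' deposited table. Pcdh11x had -16.6 at 10 d (q 0.246) and fell at 6 wk (-86.0, q 2.22e-05) in the authors' deposited table. Pcdh9 and Pcdh19 were mixed at 6 wk, with mean folds of 0.034 (q 5.77e-08) and -0.204 (q 2.27e-09) in the authors' deposited table. At 10 d neither passed, at -1.20 (q 0.134) for Pcdh9 and 0.00727 (q 0.52) for Pcdh19 in the authors' deposited table. Pcdh20 had -11.1 at 10 d (q 0.0927) and -1.69 at 6 wk (q 0.126) in the authors' deposited table, without passing either time.

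Pcdh1, a delta-1 member that is also expressed in epithelium, went the other way from Pcdh17. It rose at 12 h (1.36, q 0.0065), did not pass at 10 d (-2.42, q 0.158) and fell at 6 wk (-1.43, q 0.0086) in the authors' deposited table. With Pcdha4-g, these were the 3 members of 71 (4.23%) called in both directions at different times, beside 3.07% of the genes with a fold at each time. Whether such folds differ between times was not tested, since no values per library were at hand.

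Pcdh15, a component of the tip links of sensory hair cells, rose at 6 wk (18.4, q 0.0217) after 2.40 at 12 h (q 0.828) and 12.2 at 10 d (q 0.167) in the authors' deposited table. Pcdh18, a delta-2 member, and Pcdh12, a protocadherin of endothelial cells, passed at no time. For Pcdh18 the authors' deposited table lists 9.85 at 12 h (q 0.443), the highest fold of the class at that time, then 0.441 and 0.509. Pcdh12 had 2.34, 9.33 and 1.25 in the authors' deposited table, with q of 0.226 or more.

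**Figure D2:**
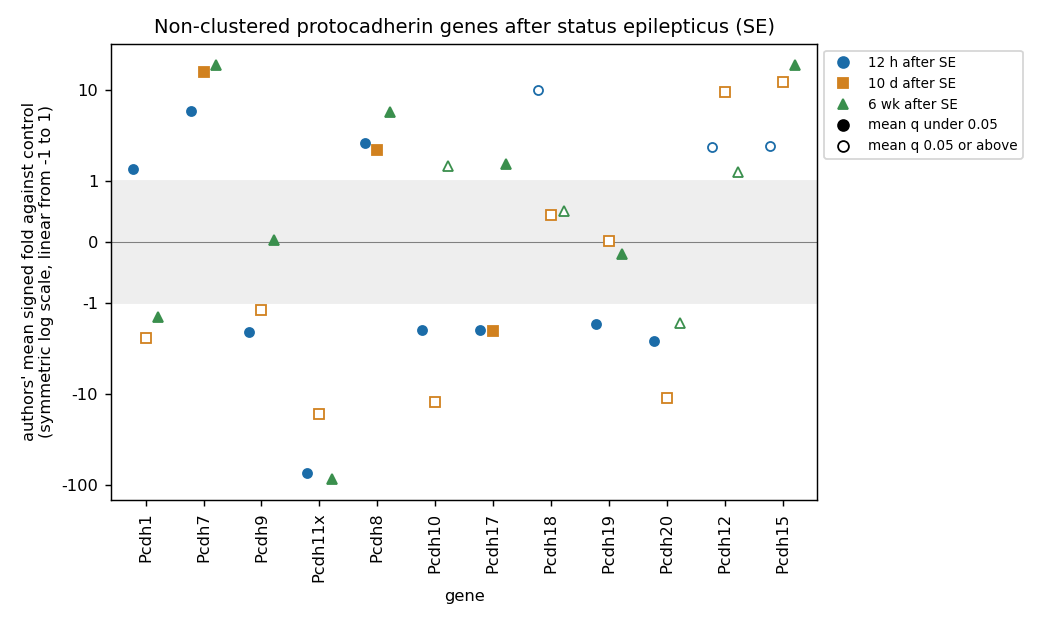
Mean signed fold against control, from the authors' deposited table, of the 12 non-clustered genes at 12 h (circles), 10 d (squares) and 6 wk (triangles) after SE, on a symmetric log axis that is linear from -1 to 1 (grey band). Filled points passed a q of 0.05. Pcdh7 and Pcdh8 stood above the band with filled points at all 3 times, and Pcdh17 moved from below it at 12 h and 10 d to above it at 6 wk.

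The 250 bases before the annotated start of 3 of these genes are shown because their genes were called in different directions, Pcdh8 higher throughout, Pcdh10 lower at 12 h and Pcdh17 lower and then higher. Sequences are from the mouse mm9 genome, on the strand of the gene, at chr14:80171120-80171369 (minus strand) for Pcdh8, chr3:45182070-45182319 (plus strand) for Pcdh10 and chr14:84843120-84843369 (plus strand) for Pcdh17. Capitals mark the letters TGACG on either strand, the core of the site that CREB, the cAMP response element binding protein, can bind.
Pcdh8: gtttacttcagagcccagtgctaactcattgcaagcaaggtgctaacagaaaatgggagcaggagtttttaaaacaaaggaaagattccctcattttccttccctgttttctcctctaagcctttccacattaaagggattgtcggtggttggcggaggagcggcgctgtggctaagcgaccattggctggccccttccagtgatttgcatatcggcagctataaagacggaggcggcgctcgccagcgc
Pcdh10: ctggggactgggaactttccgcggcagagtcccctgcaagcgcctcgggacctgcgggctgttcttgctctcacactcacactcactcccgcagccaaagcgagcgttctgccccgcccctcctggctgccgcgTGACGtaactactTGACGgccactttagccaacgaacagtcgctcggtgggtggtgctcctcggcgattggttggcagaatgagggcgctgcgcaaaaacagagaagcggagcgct
Pcdh17: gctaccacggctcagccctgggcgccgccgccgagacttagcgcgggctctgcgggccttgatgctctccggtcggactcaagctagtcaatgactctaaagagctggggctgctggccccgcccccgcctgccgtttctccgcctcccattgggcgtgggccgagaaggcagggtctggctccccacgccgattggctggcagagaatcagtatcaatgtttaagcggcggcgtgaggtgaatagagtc
The Pcdh10 window held TGACG at 2 places, beginning 116 and 103 bases before the start, and the other 2 windows held none. Among all 20205 windows of this length 21.3% held TGACG and 2.16% the full palindrome TGACGTCA, which contains TGACG, searched on both strands. TGACG stood in 7 of 15 alpha windows (46.7%), 0 of 22 beta, 1 of 22 gamma and 2 of 12 non-clustered windows, and TGACGTCA in none of these 71. The alpha windows are not all separate, since those of Pcdha4 (start 37112343) and Pcdha4-g (start 37112395) overlap.

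A second readout in the deposited table covers the start of Pcdh10. Its columns name no sample, group or time, so it cannot be tied to SE. Its relation to the folds was not tested. The table lists regions named for CREB beside small RNA tags, and a region lay within 2000 bases of its tag on every row that named one, but within 2000 bases of the row's own gene on 22.5, 23.0 and 22.8% of rows in the 3 region lists. Regions were therefore placed by their coordinates, and a region far from any tag would not be listed. A region at 45181816 to 45182551 on chromosome 3, with a height of 11 on a scale of the authors that is not given, covered the start of Pcdh10 and the printed window. A region of another list at 45181816 to 45182497 had a height of 12. The remaining list held no region within 2000 bases of Pcdh10. Of all genes 2.12% had a start covered by a listed region, against 1 of 12 non-clustered and 0 of 59 clustered genes. In Pcdh9 regions with heights of 9 and 10 were centred 2058 and 2044 bases after the start, and another, with heights of 7 and 8, 719955 bases after it. The gamma cluster held 1 listed region, at 37981265 to 37982000 on chromosome 18, within the span of every gamma gene and within 2000 bases of the start of none. Regions at 37802396 to 37802734 and 37803375 to 37804124, with heights of 9 and 21, lay between the beta and gamma clusters.

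Transcripts of 1 gene that end at different places did not always carry the same fold. The Pcdh7 transcript NM_018764, of 2 exons and 5610 exon bases, ends at 58120704 on chromosome 5, far upstream of the end of NM_001122758 at 58523479. The longer Pcdh7 transcript had -1.10 at 12 h (q 0.175), -3.02 at 10 d (q 0.2) and 2.18 at 6 wk (q 0.222) in the authors' deposited table, and so passed at no time where the shorter rose at each. Both Pcdh7 transcripts start at 58109260, so part of the reads behind the 2 values may be the same, and a difference between transcripts was not tested.

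Pcdh10 had 4 transcripts. The Pcdh10 transcript NM_001098171 fell at all 3 times, with -1.84 (q 0.00113), -22.7 (q 0.0116) and -1.49 (q 0.0326) in the authors' deposited table. The first-listed Pcdh10 transcript NM_001098172, which shares 93.6% of its 4230 exon bases with NM_001098171, had -12.4 at 10 d (q 0.222) and 1.46 at 6 wk (q 0.145) in the authors' deposited table. The Pcdh10 transcript NM_001098170 was mixed at 12 h (-0.843, q 0.0299), and NM_011043, the shortest, passed at no time (q 0.102 to 0.488) in the authors' deposited table.

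Pcdh15 had 14 transcripts with 4 ends, and those with the same end had the same values. Its transcripts ending at 74097510 on chromosome 10, such as NM_001142740, rose at 10 d (10.1, q 0.0102) and 6 wk (33.9, q 1.8e-07) in the authors' deposited table. Those ending at 73970345, such as NM_001142747, rose at 6 wk alone (20.7, q 0.0311), and those ending at 74112475, such as NM_001142760, passed at no time (12.2 at 6 wk, q 0.275) in the authors' deposited table. The fold of every Pcdh15 transcript was positive at each time.

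**Figure D3:**
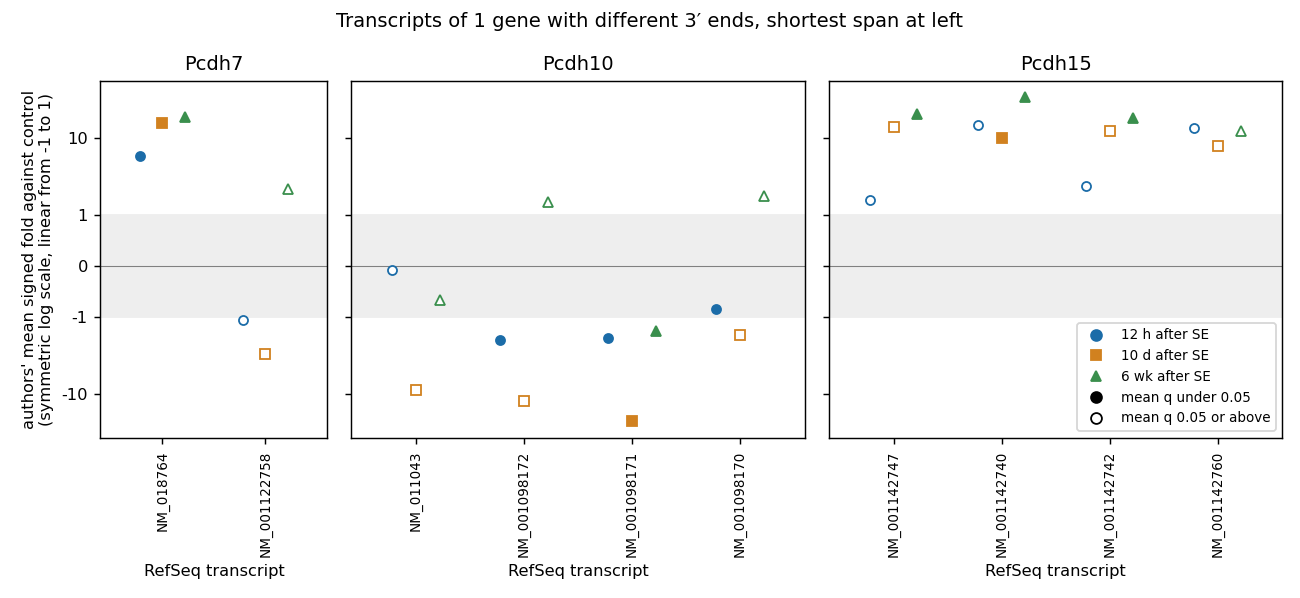
Mean signed fold against control, from the authors' deposited table, of the transcripts of Pcdh7, Pcdh10 and Pcdh15 that differ in where they end, at 12 h, 10 d and 6 wk after SE (symmetric log axis, linear from -1 to 1). Filled points passed a q of 0.05. The shorter Pcdh7 transcript lies at 5.88 to 18.7 with filled points and the longer at -3.02 to 2.18 with open ones.

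The alpha genes carried nearly the same value at each time. All 14 that end at the common constant exons (within 9 bases of 37347311 on chromosome 18) had 12 h folds between 1.23 and 1.59 in the authors' deposited table, with a median of 1.24. Of these, Pcdhac2 alone passed (1.59, q 0.0297), one of the C-type isoforms whose promoters lie next to the constant exons. Its neighbour Pcdhac1 had 1.23 (q 0.376) in the authors' deposited table. At 10 d the same 14 lay between 0.0216 and 0.196 and at 6 wk between 0.572 and 0.725 in the authors' deposited table, all under 1 in size and none past q, whose lowest values were 0.0533 and 0.179. At each time 12 of the 15 alpha genes lay within 0.1 of the class median.

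In the 3 alpha genes with a matching transcript in the GENCODE annotation of mm9, Pcdha12, Pcdhac1 and Pcdhac2, each transcript had 4 exons, and 2860 bases were common to all 3 and made up 52.7 to 54.4% of the exon bases. Uniquely mapped reads in these constant exons would count for every alpha row, so the 14 folds are not 14 separate measurements, and choices among alpha promoters cannot be read from them. Pcdha4-g (NM_001174154) ends in the gamma cluster at 37999854. It was the alpha member with calls at 2 times, lower at 10 d (-4.47, q 0.0146) and higher at 6 wk (2.10, q 0.00393) in the authors' deposited table. At 12 h Pcdha4-g stood at 1.57 (q 0.197) in the authors' deposited table.

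The gamma genes were as uniform, and 0 of 22 were called higher or lower at any time. Every gamma fold was under 1 in size, as were 24.7, 18.7 and 22.0% of folds of all genes at 12 h, 10 d and 6 wk. The gamma medians in the authors' deposited table were -0.0442 at 12 h, 0.62 at 10 d and 0.891 at 6 wk, and 19, 20 and 19 of the 22 genes lay within 0.1 of them. All 22 end within 9 bases of 38001524, and in 8 with a matching transcript 2116 bases were common to all and 41.7 to 45.2% of exon bases were shared. As in the alpha cluster, reads in shared exons would count for every gamma row, so the 22 folds are not 22 separate measurements. Mixed calls fell on Pcdhga10 (0.687, q 0.0124) and Pcdhgb7 (0.647, q 0.0453) at 10 d in the authors' deposited table. At 6 wk the mixed genes in the authors' deposited table were Pcdhga12 (0.908, q 0.00991), Pcdhgc5 (0.965, q 0.0137), Pcdhgb2 (0.914, q 0.0257) and Pcdhga10 (0.966, q 0.0474). At 10 d 3.59% and at 6 wk 3.73% of all genes were mixed.

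A few gamma genes stood about 0.5 below the rest, and no gamma gene stood as far above. These were Pcdhga2 (-0.56), Pcdhga9 (-0.543) and Pcdhgc3 (-0.529) at 12 h, Pcdhga2 (0.0918) and Pcdhgc3 (0.086) at 10 d, and Pcdhga2 (0.333), Pcdhga5 (0.367) and Pcdhga9 (0.38) at 6 wk in the authors' deposited table. They lay 0.48 to 0.56 under the class median. In a mean of 4 signed folds, 1 pair passing from 1 to -1, which is no change in level, moves the mean by 0.5. Whether this occurred in these genes was not tested, since no values per pair were at hand. The C-type members Pcdhgc4 and Pcdhgc5, of which Pcdhgc4 is needed for neuronal survival in mice, had -0.0445 and -0.0439 at 12 h in the authors' deposited table, near the class median. Pcdhgc4 had the highest gamma fold at 10 d, 0.709 (q 0.17), and 0.855 at 6 wk (q 0.226), and Pcdhgc3 had 0.881 at 6 wk (q 0.0587) in the authors' deposited table.

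The beta genes were the reverse of uniform. The 19 of 22 with a matching GENCODE transcript had a single exon each, with 0 bases shared between members, so each of these 19 rows is counted on its own. Folds in the authors' deposited table ran from -174 (Pcdhb10, q 0.345) to 30.2 (Pcdhb4, q 0.297) at 12 h. At 10 d they ran from -25.4 (Pcdhb16) to 44.1 (Pcdhb5, q 0.371) and at 6 wk from -267 (Pcdhb10, q 0.293) to 67.3 (Pcdhb13) in the authors' deposited table. Folds of 20 or more in size made up 13.6% of beta genes at each time, against 8.55, 11.2 and 14.8% of all genes. The median q of the class was 0.413, 0.458 and 0.314. At 6 wk Pcdhb1 had the rounded values of Spink8 (-1.58, q 0.694) and Pcdhb11 those of Sostdc1 (-1.08, q 0.783) in the authors' deposited table. Whether the wide spread of beta folds reflects low counts was not tested. Of the 3 folds of that size at each time, 0 passed at 12 h, 1 at 10 d and 2 at 6 wk.

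At 12 h 0 beta genes passed the authors' q, whose lowest value in the class was 0.181, and unadjusted p-values were not at hand. Pcdhb16 fell at 10 d (-25.4, q 2.34e-05), and Pcdhb3 (25.5, q 0.00413) and Pcdhb13 (67.3, q 4.75e-05) rose at 6 wk in the authors' deposited table. That is 1 of 22 at 10 d (4.55%) and 2 of 22 at 6 wk (9.09%). Pcdhb16 had -2.81 at 12 h (q 0.189) and -0.499 at 6 wk (q 0.446), and Pcdhb13 had 6.01 at 12 h (q 0.401) and 8.94 at 10 d (q 0.422) in the authors' deposited table. The immediate neighbours of Pcdhb13, Pcdhb12 and Pcdhb14, had -16.3 (q 0.121) and -1.81 (q 0.146) at 6 wk in the authors' deposited table, on the other side of 0. In the beta cluster 5 genes had a positive (22.7%) and 7 a negative fold (31.8%) at all 3 times, counted by sign whatever the size, beside 22.1 and 23.6% of all genes with a fold at each time.

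**Figure D4:**
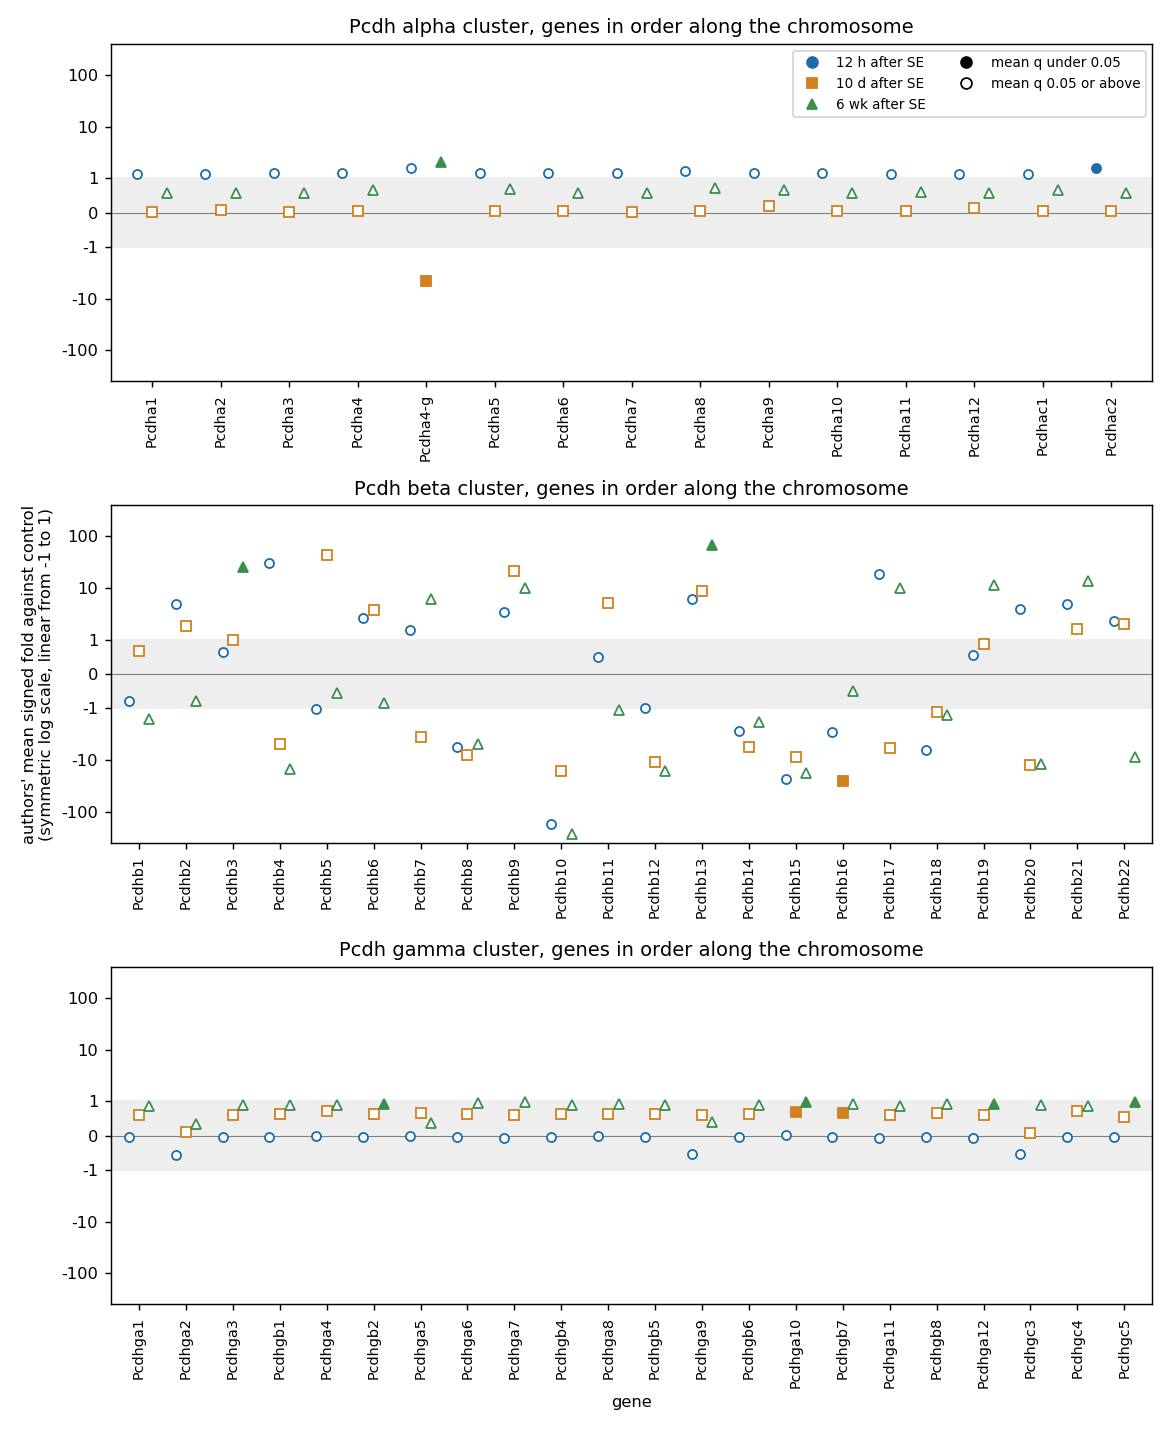
Mean signed fold against control, from the authors' deposited table, of the alpha, beta and gamma protocadherin genes in their order along the chromosome, at 12 h, 10 d and 6 wk after SE (symmetric log axis, linear from -1 to 1). Filled points passed a q of 0.05. Most alpha and gamma genes lie close to their class median, with Pcdha4-g farthest from it, whereas beta genes run from -267 to 67.3.

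Proteins that act with protocadherins were followed as a list of 26, all measured. At 12 h 4 rose, 5 fell and 4 were mixed, at 10 d 3 rose, 11 fell and 1 was mixed, and at 6 wk 3 rose, 5 fell and 5 were mixed. That is 34.6, 53.8 and 30.8% called, beside 17.6, 19.1 and 21.6% of all genes, of which 4.28, 3.59 and 3.73% were mixed. The median log2 fold of the list was 0 at 12 h and 6 wk and -0.81 at 10 d, against 0 over all genes at each time. Taok2, the kinase downstream of Pcdh8, rose at all 3 times, with 4.8 (q 1.59e-06), 2.09 (q 1.51e-08) and 1.24 (q 1.43e-06) in the authors' deposited table. Prkca, protein kinase C alpha, fell at 10 d (-4.20, q 8.66e-16) and 6 wk (-1.23, q 5.63e-06) in the authors' deposited table.

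Among the kinases that clustered protocadherins bind and inhibit, Ptk2b, or PYK2, fell at 10 d (-2.57, q 0.00107) and at 6 wk (-2.21, q 9.82e-16) in the authors' deposited table. Ptk2, the focal adhesion kinase FAK, fell at 12 h (-1.09, q 0.0178) and 10 d (-2.11, q 0.0107) in the authors' deposited table. The 12 h value of Ptk2 lies close to no change in level. The subunits of the WAVE complex, singled out here after their values were seen, went both ways at 10 d. Of 8 subunit genes on the list 4 fell, 2 rose, 1 was mixed and 1 did not pass at that time. Of all genes with a fold at 10 d, 11.3% were lower, 7.85% higher and 3.59% mixed. Cyfip2 had -3.56 (q 1.12e-15), Wasf3 -7.01 (q 3.25e-09), Nckap1 -1.11 (q 0.00298) and Abi2 -1.05 (q 1.49e-14), all lower, in the authors' deposited table. Their paralogs Cyfip1 and Wasf2 rose, at 1.42 (q 0.0108) and 2.44 (q 0.000864) in the authors' deposited table. Abi1 had -2.57 (q 0.323) and Wasf1 was mixed (-0.583, q 0.0325) at 10 d in the authors' deposited table. Wasf1 fell at 6 wk (-2.37, q 9.82e-16) in the authors' deposited table. The 10 d values of Nckap1 and Abi2 lie close to no change in level. At other times Cyfip1 rose at 12 h (1.13, q 0.0111) and 6 wk (2.48, q 7.38e-08) in the authors' deposited table. Cyfip2 also fell at 12 h (-1.51, q 0.000604) in the authors' deposited table.

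Of 22 regulators of promoter choice and chromatin at the clusters, 3 rose and 2 fell at 12 h, 2 rose and 5 fell at 10 d, and 4 rose and 1 fell at 6 wk. That is 22.7, 31.8 and 22.7% called, beside 17.6, 19.1 and 21.6% of all genes. Setdb1, a histone H3 lysine methyltransferase that acts on the clusters in neurons, was called lower at every time. Its values were -2.16 (q 2.2e-06), -3.29 (q 4.07e-05) and -1.03 (q 9.11e-15) in the authors' deposited table, the last, at 6 wk, close to no change in level. Smchd1, a chromatin protein that silences clustered protocadherins, fell at 12 h (-8.41, q 0.0268) and 10 d (-5.18, q 0.00403) in the authors' deposited table. The insulator gene Ctcf rose at 12 h (2.31, q 0.000494), and the cohesin gene Rad21 rose at 10 d (1.98, q 2.59e-05) and 6 wk (2.26, q 1.79e-10) in the authors' deposited table. Other cohesin genes parted at 10 d, where Smc3 rose (3.94, q 0.00149) and Stag2 fell (-12.1, q 1.52e-08) in the authors' deposited table. Zbtb33, which encodes the methyl-DNA binding protein Kaiso, rose at 12 h (7.61, q 1.19e-09) and 6 wk (5.89, q 0.000103) in the authors' deposited table.

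Markers of other cell types were counted by the same rule, and their part in the protocadherin calls was not tested. Of all genes with a fold 17.6, 19.1 and 21.6% were called at 12 h, 10 d and 6 wk. Under these shares were granule neuron markers at 12 h and 6 wk (both 9.09%) and interneuron and astrocyte markers at 12 h (both 16.7%). Choroid plexus markers were also under them at 10 d (8.33%) and 6 wk (0%). Every other list and time was above. At 12 h, 10 d and 6 wk respectively, 0, 0 and 0 of 11 granule neuron markers rose and 1, 6 and 1 fell, while 4, 0 and 2 of 15 pyramidal markers rose and 2, 6 and 4 fell. Of 18 interneuron markers, 17 of them with a fold at the later times, 3, 1 and 2 rose and 0, 5 and 7 fell. Of 12 microglial markers 2, 5 and 5 rose and 1, 1 and 0 fell, and of 12 astrocyte markers 2, 4 and 4 rose and 0, 0 and 1 fell. Of 12 oligodendrocyte markers 2, 3 and 2 rose and 3, 1 and 2 fell, and of 10 endothelial markers 2, 3 and 4 rose and 0, 0 and 1 fell. Choroid plexus markers gave 3, 1 and 0 rises and 0 falls of 12 (11 with a fold at 6 wk), with the carrier gene Ttr at 179, 558 and 57.7 (q 0.0529 at 6 wk) in the authors' deposited table. Levels per library, against which the hippocampal origin could be checked, were not used here.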

How the data were processed

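Polyadenylated hippocampal RNA was measured in 8 libraries, 2 per group. Per the series' design text, Bowtie with default settings aligned the reads to mm9, and reads with 1 place in the genome were counted over exons of RefSeq transcripts. The authors deposited a mean signed fold (a score with no fixed range) and a mean q-value per transcript and time, per the file headers; the sources used here say neither how these were computed nor how the libraries were scaled. The authors also deposited heights (a score on a scale that is not given) of regions named for CREB. The 96 of 29208 rows with no gene name stayed out. Genes listed at a fold of 0 were taken as having no fold. A further 32 columns of values per library, and 4 comparison columns for times without a sample here, were not used.

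Medians are of the signed log2 fold, with folds under 1 in size set to 0. The counting and median steps were tested on simulated data. Exons are from GENCODE vM1 on mm9, matched to rows within 5 bases at both ends. Python 3.11.15 and pandas 2.3.3 were used. The members, lists, call rule and alternatives were chosen with earlier results of these data known. Of the lists, the called member with the lowest mean q per time, at most 2, was named, with others chosen after their values were seen. One list gene that this rule names is not reported here. The rule for named members was every called one, the highest and lowest fold of each class and time, and 14 set by name. Some of the highest and lowest alpha and gamma genes are not named with those values, and other members were named besides.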

Additional observations from a re-analysis of the deposited data

How the results depend on the processing

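The 24 calls of single members were each looked up under every alternative. Over all these look-ups 130 held in direction and threshold, 12 were lost with the sign kept and 2 were lost with the sign changed. A mean q under 0.1 and any fold other than 0 kept all 24 by construction, since they only loosen the rule. The row with the lowest mean q also kept all 24, and that choice can only lower q. A mean q under 0.01 kept 20, a fold of 2 kept 18 and the last table row kept 20. The 2 changes of sign were Pcdh7 at 12 h (-1.1, q 0.175) and 10 d (-3.02, q 0.2), neither of which passed. They arose where the last instead of the first table row per symbol was used, which is its longer transcript. Where a fold of 2 in either direction was asked for, calls at 12 h fell from 10 to 6, rises there from 4 to 2, and falls at 6 wk from 2 to 1, by construction. With any fold other than 0 counted by its sign, which adds the mixed genes, rises at 10 d went from 2 to 4, rises at 6 wk from 7 to 12 and calls at 6 wk from 9 to 15. A mean q under 0.01 or 0.1, or the row with the lowest mean q per symbol, kept every count of members within 1.5 times. Among members that passed mean q or had a fold at least 1 in size, the median signed log2 fold moved for beta genes to 0.94 at 12 h (from 0) and -1.84 at 10 d (from -0.1), and for alpha genes to -2.16 at 10 d and 1.07 at 6 wk (both from 0), where Pcdha4-g alone was left. At 12 h 0 gamma genes were left. No paired analysis was possible because the folds and q-values belong to no library. For the same reason, leaving out a library, other scalings and filters on low counts were not run. Depth is unknown, so no fold has an error of its own.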

Other observations

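Other members of the cadherin superfamily, 35 of 36 listed genes found, gave 4 rises and 2 falls at 12 h, 3 and 7 at 10 d and 3 and 4 at 6 wk, or 17.6, 28.6 and 20% called, beside 17.6, 19.1 and 21.6% of all genes. With q for the averaged q-value, the atypical cadherin gene Fat1 rose at all 3 times, at 6.51 (q 1.49e-11), 5.14 (q 1.49e-05) and 6.49 (q 0.000201) in the authors' deposited table. Its relative Fat4 fell at 10 d (-13.7, q 8.66e-16) in the authors' deposited table. The type II cadherin gene Cdh22 fell at 12 h (-4.45, q 5.26e-07) and 10 d (-13, q 7.24e-09) in the authors' deposited table. Dchs1, the gene of the Fat4 ligand, rose at 12 h (4.09, q 0.0216) and 6 wk (25.6, q 9.82e-16) in the authors' deposited table. Cdh2, which encodes N-cadherin, rose at 6 wk (2.46, q 4.97e-06) and did not pass at 12 h (0.868, q 0.428) or 10 d (-4.34, q 0.152) in the authors' deposited table. Clstn1, a calsyntenin of synapses, fell at 10 d (-1.82, q 2.52e-06) and 6 wk (-2.46, q 9.82e-16) in the authors' deposited table. These examples, other than Clstn2 (-3.92 at 12 h, q 2.1e-11, in the authors' deposited table), Fat1, Fat4, Cdh22, Dchs1 and Clstn1, were chosen after their values were seen. Of 9 catenin genes 1 rose at 12 h, 3 rose at 10 d and 0 rose at 6 wk, and 0 fell at any time by the authors' q. Ctnnd1, which encodes p120-catenin, rose at 12 h (1.63, q 0.00175) and 10 d (2.72, q 0.0174) in the authors' deposited table. At 10 d Ctnna1 had 2.21 (q 9.06e-05) and Ctnnb1 was mixed (-0.0146, q 8.98e-05) in the authors' deposited table.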
